A study of Oncorhynchus mykiss with 43 samples.

Results

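The clones described here are rainbow trout cDNAs that had a value in few muscles of fasted fish and in most muscles of fish refed for 11 days. The members were chosen by these values: a clone was taken when a positive value was listed in 3 or fewer of 8 fasted fish and in 6 or more of 8 fish refed for 11 days. Of the 9023 clones on the array, 92 met this rule, which is 1.02%. Of these, 5 clones were excepted from the set by name, and 87 remained. The opposite pattern, a value in 6 or more fasted fish and in 3 or fewer at 11 days, was found for 91 clones, or 1.01%. The numbers of gained and lost clones were thus nearly equal.

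Fast muscle was sampled beneath the dorsal fin of rainbow trout (Oncorhynchus mykiss) of a spring strain, and each fish gave an array of its own, 43 in all. Fasted trout (8 fish) had been without food for 1 month. The refed trout came from the same fasted stock and received a ration above the normal one. Sampling followed at 4, 7 and 36 days with 9 fish each, and at 11 days with 8 fish. Fish fed throughout were not among the samples. The water became cooler over the sampling, most of all at 36 days, so days of refeeding and temperature cannot be told apart. Each RNA was labelled with 33P by reverse transcription and hybridised alone to a nylon membrane of spotted cDNA clones.

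When a starved fish is fed again, its muscle resumes growth by building protein faster than it is broken down. This needs ribosomes, the enzymes that charge transfer RNAs with amino acids, initiation and elongation factors, chaperones that fold the new chains, and mitochondria that supply energy. New contractile filaments and divisions of muscle precursor cells accompany this growth. Gene names were available for 20 of the 87 clones, from the clone labels printed in the paper's figures. Those figures show chosen functional classes, so a named clone belongs to such a class by the way it was named. They also show only genes that the authors had called changed in these same arrays, mostly sorted by time course. The time course of a named clone was thus in part fixed by the way it was named. The other 67 clones are given by counts, and only 4 of them by clone name, because the files do not pair clones with genes.

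The values are normalized intensities: the authors divided the signal of a spot by that of an oligonucleotide matching the vector end, which measures how much cDNA the spot carries, and scaled each array to its median. Spots with a weak oligonucleotide signal had been excluded. A cell without a value can thus reflect the spot as well as the RNA, and "listed" is used here for a clone with a value in a fish, in place of "detected". An empty cell did not always go with a low listed level. A clone of skeletal actin, the main thin filament protein of muscle, was listed in 8 of 8 fasted fish, 9 of 9 at 4 days, 3 of 9 at 7 days, 0 of 8 at 11 days and 4 of 9 at 36 days. Its median where listed was 9.11 in the fasted group and 16.1, 18.4 and 17.9 after 4, 7 and 36 days, so this clone dropped out of the list while its listed level was high. The clone of hypothetical protein MJ1432 was spotted in duplicate, and its spots were listed on 27 and 22 arrays, on 19 arrays together, and disagreed on 11 of 43 arrays. Where both were listed, the second was higher than the first by 0.13 on the log2 scale (SD 0.20), and both are members. Other duplicate spots disagreed too, some on more arrays. Spots of another clone, listed on 26 and 40 arrays, disagreed on 18. Those of a further clone, listed on 1 and 31, shared 0 arrays and disagreed on 32. The smallest disagreement was on 1 array, for spots listed on 0 and 1 arrays. Within the 87 clones, 1511 cells were empty and 6 held a 0. The label "undetected" was therefore not carried over, and the clones are called the gained clones for short.

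Facts of the whole array set the scale. Between 1441 and 2616 clones were listed per array, and the group medians lay between 2133 at 36 days and 2372 at 4 days. The listed clones did not share a median value across arrays. It ran from 2.04 in fish 5 of 4 days to 3.63 in fish 2 of 36 days, the array with 1441 clones. It was 3.14 in fish 4 of the fasted group, with 1630 clones. Of 9 clones taken as markers of muscle, 5 were listed on all 43 arrays. These were skeletal troponin C in a pair of clones, skeletal myosin light chain 1, nebulin and a clone labelled troponin T, cardiac isoforms. The lowest of the 9, skeletal actin, was listed on 24. Another of the 9, tropomyosin 1 alpha chain, is itself a gained clone and was listed on 31. Of 3 clones with cardiac names, myosin light chain 1 was listed on 42 arrays, alpha actin on 19 and beta myosin heavy chain on 1. The clone of Spi-1/PU.1, a transcription factor taken as a marker of blood, was listed on 0 arrays, as were 4414 of the 9023 clones. It thus gives no measure of blood RNA. The paper names PU.1 among the genes that rose during muscle recovery, although this clone had no listed value here. Because whole muscle was used, fewer cells of a type and less RNA per cell cannot be told apart.

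The number of gained clones listed per fish was lowest in fasted fish and highest at 11 days, with 4 and 7 days between them, and was lower again at 36 days. Fasted fish had a mean of 19.9 ± 10.6 of the 87 listed (SD, n = 8), with a lowest count of 6, a median of 19.5 and a highest of 37. The mean was 54.44 ± 13.96 (SD, n = 9) at 4 days, with counts of 28 to 67 around a median of 59. It was 65.6 ± 7.81 (SD, n = 9) at 7 days, with counts of 54 to 78 around a median of 63. Fish refed for 11 days had 74.4 ± 4.00 (SD, n = 8), between 68 and 80 around a median of 75. At 36 days the mean was 43.3 ± 14.4 (SD, n = 9), with counts of 18 to 64 around a median of 47. The gap between fasted fish and 11 days was fixed by the rule and is given as a description. So is their place as the lowest and highest groups, with the others between them, since the rule favours that order. The groups of 4, 7 and 36 days were not used by the rule, so only the differences among these groups were not set by the choice.

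The lowest counts went with arrays on which few clones of any kind were listed. The 5 arrays with the fewest clones were fish 4 of the fasted group, fish 2 and 8 of 4 days, and fish 2 and 5 of 36 days, and these fish also had the lowest counts of gained clones in their groups (6, 34, 28, 18 and 26). At 11 days this was not so: fish 7 had the fewest clones of its group (2010) and 78 gained clones, and fish 9, with 2215 clones, had the lowest count, 68. Without them the mean was 21.9 ± 9.74 when fasted (n = 7), 61.1 at 4 days (n = 7, counts of 54 to 67) and 49.4 ± 8.79 at 36 days (n = 7). The ranges of 4 and 7 days overlapped widely, while 8 of the 9 fish at 36 days had 55 clones or fewer, and the highest had 64. Over all cells of the gained clones, 22.8% were listed in the fasted group, and 62.6%, 75.3%, 85.5% and 49.8% after 4, 7, 11 and 36 days. Over all 9023 clones the same shares were 23.97%, 24.5%, 24.6%, 23.8% and 22.1%. Over the 4609 clones with a value on any array they were 46.9%, 47.9%, 48.2%, 46.7% and 43.3%. Between 7 and 36 days the gained clones thus lost more of their cells than either of these sets.

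**Figure D1:**
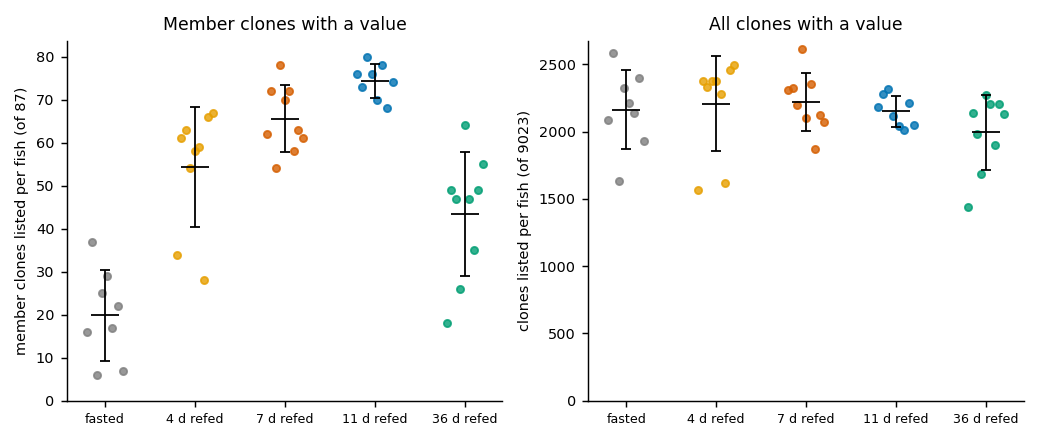
Clones with a value in each fish, for the 87 gained clones (left) and for all 9023 clones (right), by group. Points are fish, bars are the group mean ± SD. The gained clones lie between 68 and 80 per fish at 11 days and between 18 and 64 at 36 days, and the 5 arrays with the fewest clones at the right are also low at the left.

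The members differed in how fully they met the rule. Of the 87 clones, 14 were listed in 0 of 8 fasted fish, 18 in 1, 24 in 2 and 31 in 3. At 11 days 38 were listed in 6 fish, 25 in 7 and 24 in 8. The clone 1RT36K14_C_F07, which has no gene name here, was the single clone listed in 0 of 8 fasted fish and in 8 of 8 fish at 11 days. It was listed in 5 of 9 fish at 4 days (median 1.07), 8 of 9 at 7 days (1.49) and 5 of 9 at 36 days (1.26), and its median at 11 days was 1.49. The threshold had no gap in the data. Just inside it, 11 clones were listed in 3 fasted fish and 6 fish at 11 days, with a median of 6 fish at 4 days, 6 at 7 days and 4 at 36 days. Just outside it, 70 clones were listed in 4 fasted fish (medians of 7, 7.5 and 5.5 fish at 4, 7 and 36 days) and 72 clones in 5 fish at 11 days (5, 5 and 4 fish).

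In the groups that the rule did not use, the clones fell into 4 patterns by whether they were listed in 6 or more of 9 fish. At 7 days 71 clones were so listed, at 4 days 50 and at 36 days 27. The same counts were not made over all clones. Over all clones the share of listed cells was likewise lower at 36 days (22.1%) than at 4 days (24.5%) or 7 days (24.6%). Listed in 6 or more fish at both 4 and 36 days were 19 clones, among them asparaginyl-tRNA synthetase, tropomyosin 1 alpha chain, homeodomain-only protein and RING finger protein 2. At 4 but not at 36 days there were 31 clones, and 16 of them were listed in 3 or fewer fish at 36 days. This was the pattern of 9 named genes: heat shock 70 kDa protein 4, proliferation-associated protein 2G4, Brix domain containing protein 1, density-regulated protein, ribosomal protein L17, LYAR, mitochondrial elongation factor Ts, arginyl-tRNA synthetase and the cytochrome c oxidase subunit VIIa-related protein. Time course in these arrays had a part in which clones have a name, so the named genes of a pattern test nothing. The cut at 6 fish also divided small differences. Heat shock 70 kDa protein 4, LYAR and arginyl-tRNA synthetase were each listed in 7 fish at 4 days and 5 at 36. For each, Fisher's exact test of this difference gave an unadjusted p of 0.62. At 36 but not at 4 days there were 8 clones, with septin-7 the named one. At neither time were 29 clones so listed, with FK506-binding proteins 2 and 14, the 18 kDa subunit of the microsomal signal peptidase, 39S ribosomal protein L18, hypothetical protein MJ1432 and the 26S protease regulatory subunit S10B among them.

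**Figure D2:**
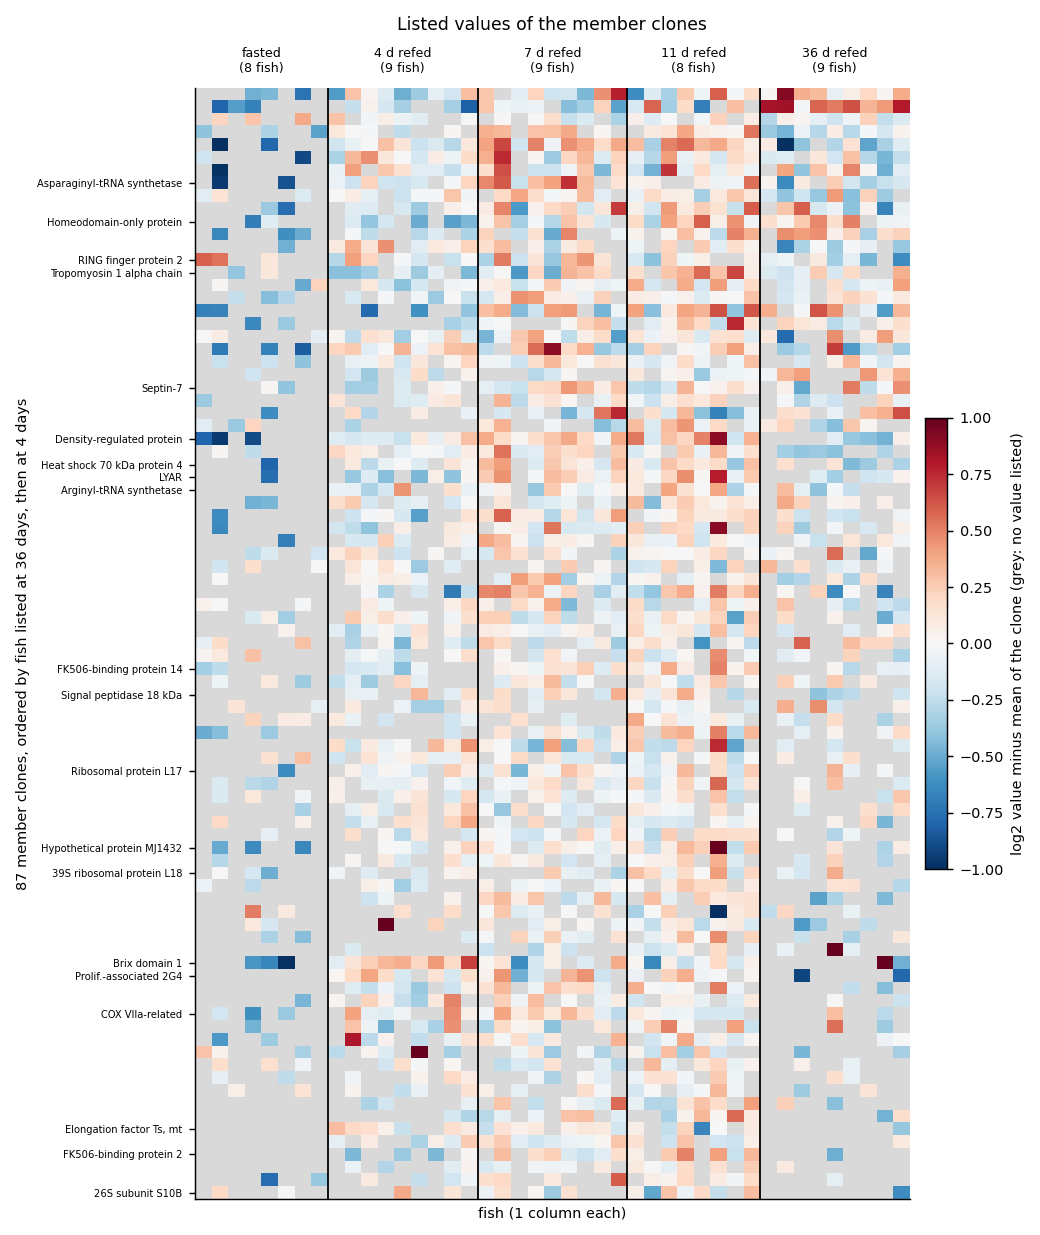
Values of the 87 gained clones (rows) in 43 fish (columns), as log2 value minus the mean of the clone over the fish in which it was listed, with grey for no value. The colour scale ends at 1 and -1, rows are ordered by the number of fish listed at 36 and then at 4 days, and the 20 named clones are labelled. Grey fills most of the fasted columns, little of the 11-day columns, and the lower part of the 36-day columns.

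Where a gained clone was listed in fasted fish, its value there was mostly below that of 11 days. Of the 73 clones with at least 1 fasted value, the mean log2 difference of 11 days minus fasted was positive for 58 and negative for 15, with a median of 0.36 and a range of -0.47 to 1.19. Over the 1704 clones listed in 5 or more fish of both groups the median was 0.0042. Both groups were used by the rule, so these values describe the set and test nothing. The gained clones were dimmer than the array as a whole: their median value was 1.19 (from 0.487 to 6.89) against 1.60 over all 4609 clones with a value. The share under 1 was 29.9% against 29.3% of all clones, but only 19.5% had a value of 2 or more, against 40.7%. For 60 clones, listed in 3 or more fish at each of 4, 7 and 36 days, the refed groups were ranked by mean log2 value. The mean was highest at 4 days in 5 clones, 7 days in 20, 11 days in 21 and 36 days in 14. The rule used the 11-day group, so these counts describe the set and test nothing. They were not made over all clones.

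Among the genes of translation, asparaginyl-tRNA synthetase, which attaches asparagine to its transfer RNA, was listed in 2 of 8 fasted fish, at 1.23 and 1.30. Its values ran from 2.06 through a median of 2.22 to 2.78 at 4 days (8 of 9 fish), from 2.05 through 3.06 to 3.95 at 7 days (8 of 9), from 2.30 through 2.45 to 3.50 at 11 days (6 of 8) and from 1.53 through 2.12 to 2.83 at 36 days (8 of 9). The highest values stood at 7 days, both fasted values lay below every refed value, and the refed groups overlapped. Arginyl-tRNA synthetase, the corresponding enzyme for arginine, was listed in 0 of 8 fasted fish, in 7 of 9 at 4 days (0.697 to 1.18, median 0.824), 8 of 9 at 7 days (0.664 to 1.03, median 0.857), 7 of 8 at 11 days (0.696 to 1.13, median 0.923) and 5 of 9 at 36 days (0.652 to 1.07, median 0.806). Its listed level was nearly the same in the 4 refed groups.

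Density-regulated protein, which takes part in the start and restart of translation on the ribosome, was listed in 3 fasted fish at 0.548, 0.574 and 0.614. It was listed in all fish at 4 days (0.915 to 1.31, median 0.980), at 7 days (1.05 to 1.38, median 1.22) and at 11 days (0.927 to 1.98, median 1.33), and in 5 of 9 at 36 days (0.767 to 1.11, median 0.821). The fasted values lay below all others, and at 36 days both the number of fish and the level were lower than at 7 days. Mitochondrial elongation factor Ts, which recycles the factor that brings transfer RNAs to the mitochondrial ribosome, was listed in 0 of 8 fasted fish, 7 of 9 at 4 days (median 1.26), 8 of 9 at 7 days (1.18), 6 of 8 at 11 days (1.145) and 1 of 9 at 36 days (0.863). It was thus nearly as rare in the list at 36 days as in fasted fish.

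The 4 genes of protein folding and maturation had values in 6 to 8 of 9 fish at 7 days and in 1 to 5 of 9 at 36 days. This was near the whole set, with a median of 7 fish per member at 7 days and 4 at 36 days. FK506-binding protein 2, a prolyl isomerase of the endoplasmic reticulum, was listed in 0 of 8 fasted fish and 4 of 9 at 4 days (0.682 to 0.937, median 0.701). Values stood in 7 of 9 at 7 days (0.8011 to 1.153, median 1.04), 6 of 8 at 11 days (0.798 to 1.31, median 1.14) and 1 of 9 at 36 days (0.664). Its single value at 36 days lay below every value of 4, 7 and 11 days. FK506-binding protein 14, another isomerase of that compartment, was listed in 2 fasted fish (0.945 and 1.00), 5 of 9 at 4 days (median 1.08), 8 of 9 at 7 days (1.28), 7 of 8 at 11 days (1.30) and 4 of 9 at 36 days (1.14).

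The 18 kDa subunit of the microsomal signal peptidase, the enzyme that removes signal peptides from secreted proteins, was listed in 0 of 8 fasted fish, 5 of 9 at 4 days (median 1.34), 6 of 9 at 7 days (1.56), 6 of 8 at 11 days (1.49) and 4 of 9 at 36 days (1.153). Heat shock 70 kDa protein 4, a nucleotide exchange factor of the HSP70 chaperones, was listed in 1 fasted fish at 1.71. Its values ran from 2.48 to 3.25 at 4 days (7 of 9, median 2.97), 2.64 to 3.97 at 7 days (8 of 9, median 3.41), 2.29 to 3.64 at 11 days (8 of 8, median 3.28) and 2.18 to 3.33 at 36 days (5 of 9, median 2.40). The fasted value lay below all others and the refed groups overlapped.

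Of the ribosome genes, Brix domain containing protein 1, whose family acts in ribosome assembly, had a higher median at 4 days than at 7 or 11 days. Fasted values stood in 3 fish, at 0.531, 0.710 and 0.744. The clone was listed in 9 of 9 at 4 days (1.04 to 1.79, median 1.32), 7 of 9 at 7 days (0.723 to 1.44, median 1.13) and 8 of 8 at 11 days (0.715 to 1.28, median 1.11). At 36 days it was listed in 2 of 9 fish, at 0.800 and 2.91, which lie below and above all values of 4 days. Ribosomal protein L17, a protein of the large subunit, was listed in 1 fasted fish (0.568), 7 of 9 at 4 days (median 0.895), 9 of 9 at 7 days (0.884), 7 of 8 at 11 days (0.857) and 3 of 9 at 36 days (0.864). Its level where listed hardly moved between refed groups, while the number of fish did.

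39S ribosomal protein L18, of the mitochondrial ribosome, was listed in 3 fasted fish (0.988 to 1.38), 5 of 9 at 4 days (median 1.35), 4 of 9 at 7 days (1.30), 8 of 8 at 11 days (1.58) and 3 of 9 at 36 days (1.32). It was listed in all fish only at 11 days. The clone labelled hypothetical protein MJ1432 was listed in 3 fasted fish (0.458 to 0.506), 5 of 9 at 4 days (median 0.714), 8 of 9 at 7 days (0.733), 8 of 8 at 11 days (0.818) and 3 of 9 at 36 days (0.753). Its second spot, counted among the 67 without a name, was listed in 3 fasted fish (0.563 to 0.616), 1 of 9 at 4 days (0.693), 7 of 9 at 7 days (median 0.819), 7 of 8 at 11 days (0.989) and 4 of 9 at 36 days (0.795). The spots thus differed most at 4 days, with 5 fish against 1. The cytochrome c oxidase subunit VIIa-related protein, related to a subunit of the last complex of the respiratory chain, was listed in 3 fasted fish (0.471 to 0.630), 6 of 9 at 4 days (median 0.725), 9 of 9 at 7 days (0.774), 7 of 8 at 11 days (0.691) and 2 of 9 at 36 days (0.597 and 0.887).

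Of the genes of cell division, proliferation-associated protein 2G4, an RNA-binding growth regulator, was listed in 0 of 8 fasted fish, 8 of 9 at 4 days (2.15 to 3.15, median 2.69), 7 of 9 at 7 days (1.72 to 3.28, median 2.47), 6 of 8 at 11 days (2.31 to 3.08, median 2.42) and 2 of 9 at 36 days (1.27 and 1.40). Both values at 36 days lay below every value of the other refed groups. Septin-7, a filament-forming GTPase of the cell cortex and of cytokinesis, was listed in 2 fasted fish (0.846 and 1.14), 5 of 9 at 4 days (median 1.01), 9 of 9 at 7 days (1.27), 8 of 8 at 11 days (1.13) and 6 of 9 at 36 days (1.13). Its values overlapped among all groups.

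Tropomyosin 1 alpha chain, which lies along the actin filament and gates contraction, was listed in 2 fasted fish at 1.92 and 2.72. Its values ran from 1.84 to 2.37 at 4 days (7 of 9, median 1.96), 1.69 to 3.17 at 7 days (8 of 9, median 2.69), 2.64 to 4.00 at 11 days (7 of 8, median 3.05) and 2.17 to 3.21 at 36 days (7 of 9, median 2.38). The values at 11 days all lay above those at 4 days, and the fasted values lay within the refed range.

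Of the transcriptional regulators, LYAR, a nucleolar zinc finger protein, was listed in 1 fasted fish at 0.639, in 7 of 9 at 4 days (0.789 to 1.13, median 0.830), 8 of 9 at 7 days (1.03 to 1.48, median 1.27), 8 of 8 at 11 days (1.02 to 1.86, median 1.20) and 5 of 9 at 36 days (0.851 to 1.11, median 0.967). Homeodomain-only protein, a small cofactor without DNA binding that is known in mammals from heart muscle, was listed in 2 fasted fish at 0.384 and 0.569. Refed fish had a value in 6 of 9 at 4 days (0.423 to 0.563, median 0.462), 8 of 9 at 7 days (0.492 to 0.753, median 0.621), 8 of 8 at 11 days (0.495 to 0.933, median 0.711) and 8 of 9 at 36 days (0.597 to 0.879, median 0.692). All values at 36 days lay above all values at 4 days.

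A pair of genes grouped here under protein degradation met the rule although their listed levels were not lower in fasted fish. The paper describes genes of this class, several proteasome subunits and ubiquitin ligases among them, as highly expressed in fasted muscle and lower after refeeding. By listing, this pair went the other way between fasted fish and 11 days, as the rule required. The paper's description concerns expression level, so listing is not a like measure. The 26S protease regulatory subunit S10B, an ATPase of the proteasome cap, was listed in 2 fasted fish (3.39 and 3.92), 2 of 9 at 4 days (3.71 and 4.44), 5 of 9 at 7 days (median 3.46), 7 of 8 at 11 days (2.38 to 4.23, median 3.55) and 1 of 9 at 36 days (2.22). RING finger protein 2, a ubiquitin ligase of a Polycomb complex, was listed in 3 fasted fish at 2.33, 3.15 and 3.27. Its medians were 2.14 at 4 days (7 of 9), 2.36 at 7 days (8 of 9), 2.17 at 11 days (6 of 8) and 2.01 at 36 days (7 of 9). The fasted values of S10B lay within the refed range and those of RING finger protein 2 within or above it, so these clones were gained in listing and not in listed level.

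**Figure D3:**
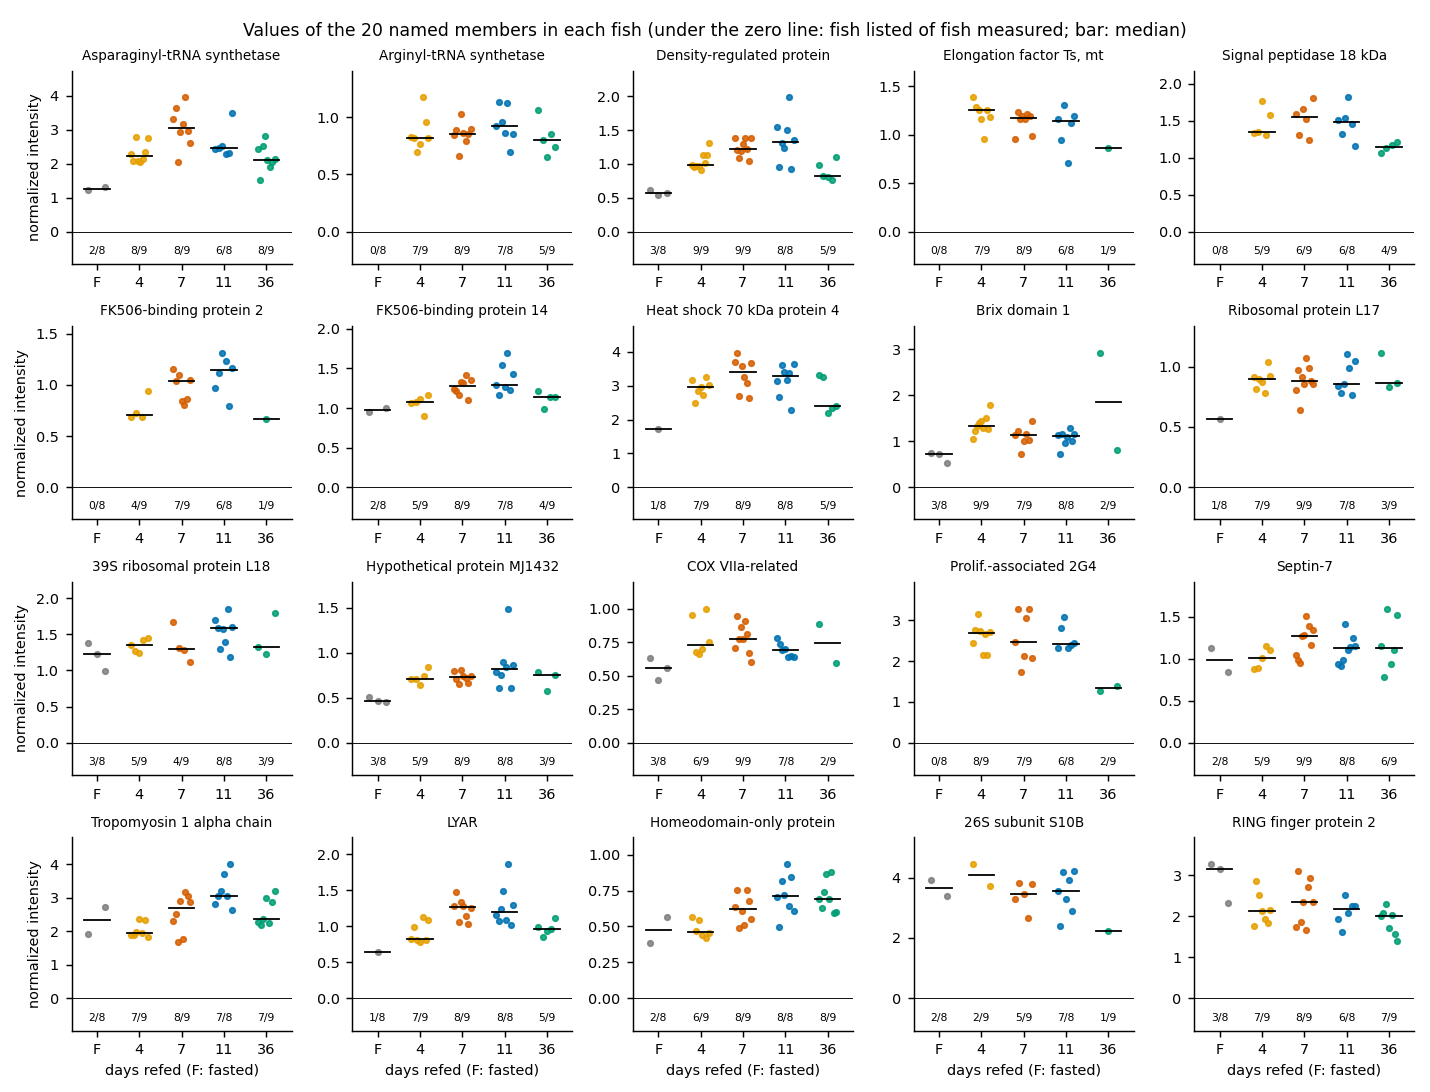
Normalized intensity (linear) of the 20 named gained clones in each fish, with F for fasted and days of refeeding on the horizontal axis. Points are fish in which the clone was listed, bars are medians, and the numbers under the zero line are fish listed of fish measured. Density-regulated protein goes from 3 of 8 fasted fish to 8 of 8 at 11 days with higher values, while RING finger protein 2 goes from 3 of 8 to 6 of 8 with lower ones.

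To ask whether the gained clones differed among refed groups that the rule did not use, listing was compared between 4, 7 and 36 days clone by clone with a two-sided Fisher's exact test, with Benjamini-Hochberg adjustment over all clones tested. None of the members passed an adjusted p of 0.05: 0 of 49 tested between 7 and 4 days, 0 of 66 between 36 and 4 days and 0 of 64 between 36 and 7 days. Over all clones tested the share called was 0%, 0.0957% and 0%, so the test called almost nothing on the array. At an unadjusted p under 0.05 there were 4, 7 and 10 members, or 8.16%, 10.6% and 15.6% of those tested, against 2.16%, 12.8% and 12.4% of all clones.

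The direction of these differences was mostly towards fewer fish at 36 days. Between 36 and 7 days 55 of the 64 members tested were listed in fewer fish at 36 days, 7 in more and 2 in equally many, with a median difference of -33.3 percentage points, against -11.1 over all 989 clones tested. Between 36 and 4 days 49 of 66 were lower and 13 higher, with a median of -22.2 points against -11.1. Between 7 and 4 days 30 of 49 were higher and 9 lower, with a median of 11.1 points against 0. The 5 arrays with the fewest clones belong in part to 4 and 36 days, and without them the medians were -27.0 points for 36 against 7 days, -28.6 for 36 against 4 days and 9.52 for 7 against 4 days, against -4.76, -14.3 and -9.52 over all clones. For 7 against 4 days 23 of 40 members were then higher and 17 lower, which is nearly even, while the median over all clones had become negative. These counts needed 5 unlisted fish, which left out members listed in nearly all fish, some of them in more at 36 than at 7 days. With all arrays and 3 listed and 3 unlisted fish, 65 of 78 members were lower and 11 higher between 36 and 7 days (median -33.3 points against -11.1). Between 36 and 4 days 54 of 81 were lower and 20 higher, and the median of -11.1 points equalled that of all clones.

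The member with the smallest p was tcbk0002.o.21, a clone with no gene name here. It was listed in 0 of 8 fasted fish, 6 of 9 at 4 days, 9 of 9 at 7 days, 6 of 8 at 11 days and 1 of 9 at 36 days, and its difference between 36 and 7 days had an exact p of 0.000411 (Benjamini-Hochberg adjusted p = 0.0581). Among the named genes, the cytochrome c oxidase subunit VIIa-related protein in 2 against 9 of 9 fish (36 against 7 days) had an exact p of 0.00226 (adjusted p = 0.102). Elongation factor Ts in 1 against 8 fish (36 against 7 days) had an exact p of 0.00337 (adjusted p = 0.119). Brix domain containing protein 1 in 2 against 9 fish (36 against 4 days) had an exact p of 0.00226 (adjusted p = 0.139). Proliferation-associated protein 2G4 in 2 against 8 fish (36 against 4 days) had an exact p of 0.0152 (adjusted p = 0.249). None of these passed the threshold, and none can be called changed in listing. With 9 fish a group and so many clones adjusted, hardly any split could pass: even 1 against 9 fish did not. The lack of calls thus does not show that listing was unchanged. When values under 1 were taken as not listed, Brix domain containing protein 1 (1 against 9 fish, exact test, adjusted p = 0.0346) and 1 unnamed clone passed between 36 and 4 days, and density-regulated protein (1 against 9 fish, exact test, adjusted p = 0.0438) between 36 and 7 days. These were 2 of 41 and 1 of 48 members tested, against 1.19% of 758 and 0.94% of 745 clones.

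Levels were compared on the log2 scale with limma, for clones listed in at least 5 fish of each of 4, 7 and 36 days. These were 1720 clones and 34 of the 87 members, 9 of them named, and the other 53 members had too few values. Empty cells were left out, so each difference concerns the fish in which the clone was listed, and a member passed this filter only by being listed often. Of the 34 members 20 (58.8%) lay among the dimmest 25% of the clones tested. Between 7 and 4 days 0 of 34 members passed an adjusted p of 0.05, against 0.174% of all clones. At an unadjusted p under 0.05 there were 10 members, or 29.4%, against 9.01% of all clones. The difference was positive for 28 of the 34 members, with a median of 0.14 against 0.0088 over all clones. The largest differences among named genes were those of LYAR (0.43 ± 0.11, SE, 8 of 8 fish at 7 days above the 4-day mean, limma adjusted p = 0.0726) and asparaginyl-tRNA synthetase (0.40 ± 0.12, SE, 7 of 8 fish, limma adjusted p = 0.115). With arrays weighted by their quality 5 members passed, all higher at 7 days, against 5.76% of all clones (99, of which 74 were higher), and 4 of them were named: asparaginyl-tRNA synthetase, LYAR, tropomyosin 1 alpha chain and homeodomain-only protein.

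Between 36 and 4 days 7 of 34 members passed (20.6%), against 38.1% of all clones, and 5 were higher at 36 days and 2 lower. At an unadjusted p under 0.05 there were 9 members (26.5%), against 46.5%. The share was below that of the array as a whole. Homeodomain-only protein was higher at 36 days by 0.56 ± 0.13 (SE), or 1.47-fold, in 8 of 8 listed fish (limma adjusted p = 0.0014), and its groups did not overlap. Tropomyosin 1 alpha chain was higher by 0.34 ± 0.13 (SE), or 1.26-fold, in 7 of 7 fish (limma adjusted p = 0.044). Neither passed after quantile normalization (0.26 and 0.23, limma adjusted p = 0.223 and 0.286), and tropomyosin did not pass without the 5 arrays with the fewest clones (0.35, limma adjusted p = 0.0991). The clone tcay0017.i.12, without a gene name here, showed the largest rise. It was listed in 3 fasted fish (4.13 to 4.88), 6 of 9 at 4 days (4.05 to 7.37, median 5.87), 8 of 9 at 7 days (4.93 to 8.67, median 6.81), 6 of 8 at 11 days (4.46 to 10.7, median 7.26) and 9 of 9 at 36 days (7.06 to 12.8, median 10.7). Its difference of 36 against 4 days was 0.86 ± 0.16 (SE), or 1.81-fold, in 9 of 9 fish (limma adjusted p = 0.00012). The remaining 4 called clones had no gene name, and their differences lay between -0.42 and 0.41.

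Between 36 and 7 days 9 of 34 members passed (26.5%), against 28.4% of all clones, and 8 of the 9 were lower at 36 days. At an unadjusted p under 0.05 there were 14 members (41.2%), against 40.2%. The number called was thus near that of the array, while lower calls made up 275 of the 488 over all clones. After quantile normalization 14 members passed, 13 of them lower, against 38.3% of all clones, and of all clones 28 were called higher and 630 lower in place of 213 and 275. That normalization moved the median of all clones from -0.06 to -0.28. Between 36 and 4 days it likewise moved the median from -0.08 to -0.23, and the calls from 329 higher and 327 lower to 92 and 444.

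Asparaginyl-tRNA synthetase was lower at 36 than at 7 days by 0.49 ± 0.12 on the log2 scale (SE), a 1.41-fold difference, in 8 of 8 listed fish (limma adjusted p = 0.00384). Density-regulated protein was lower by 0.48 ± 0.13 (SE), or 1.39-fold, in 5 of 5 fish (limma adjusted p = 0.00636). LYAR was lower by 0.34 ± 0.13 (SE), or 1.27-fold, in 5 of 5 fish (limma adjusted p = 0.0422). The groups overlapped for each of these 3 genes, and LYAR lost its call under 4 other settings, with adjusted p values up to 0.0835. The largest fall was that of tcay0020.a.17, which has no gene name here. Its values ran from 1.61 through a median of 2.42 to 2.95 at 7 days (9 of 9 fish) and from 0.896 through 1.496 to 2.05 at 36 days (8 of 9), a difference of -0.62 ± 0.13 (SE) in 8 of 8 fish (limma adjusted p = 0.00106). The clone tcay0017.i.12 was higher at 36 days by 0.67 ± 0.15 (SE, limma adjusted p = 0.00138), the single rise called. The other 4 calls were falls of clones without a gene name.

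The remaining named genes did not pass between 36 and 7 days. Heat shock 70 kDa protein 4 had a difference of -0.31 ± 0.13 (SE, limma adjusted p = 0.0642) and RING finger protein 2 of -0.31 ± 0.14 (SE, limma adjusted p = 0.0936). Both passed after quantile normalization (-0.48 and -0.56, limma adjusted p = 0.0157 and 0.00753) and with array weights (-0.38 and -0.42, limma adjusted p = 0.0255 and 0.0149). The differences were 0.20 ± 0.12 for homeodomain-only protein, 0.05 ± 0.13 for tropomyosin 1 alpha chain, -0.07 ± 0.14 for septin-7 and -0.06 ± 0.13 for arginyl-tRNA synthetase (SE, limma adjusted p = 0.218 to 0.795). The signs of homeodomain-only protein and tropomyosin turned after quantile normalization (-0.09 and -0.19). The 3 comparisons share groups, so their values are not independent of each other. Nor are the calls of named genes independent of the paper, whose figures chose these genes from the same arrays.

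**Figure D4:**
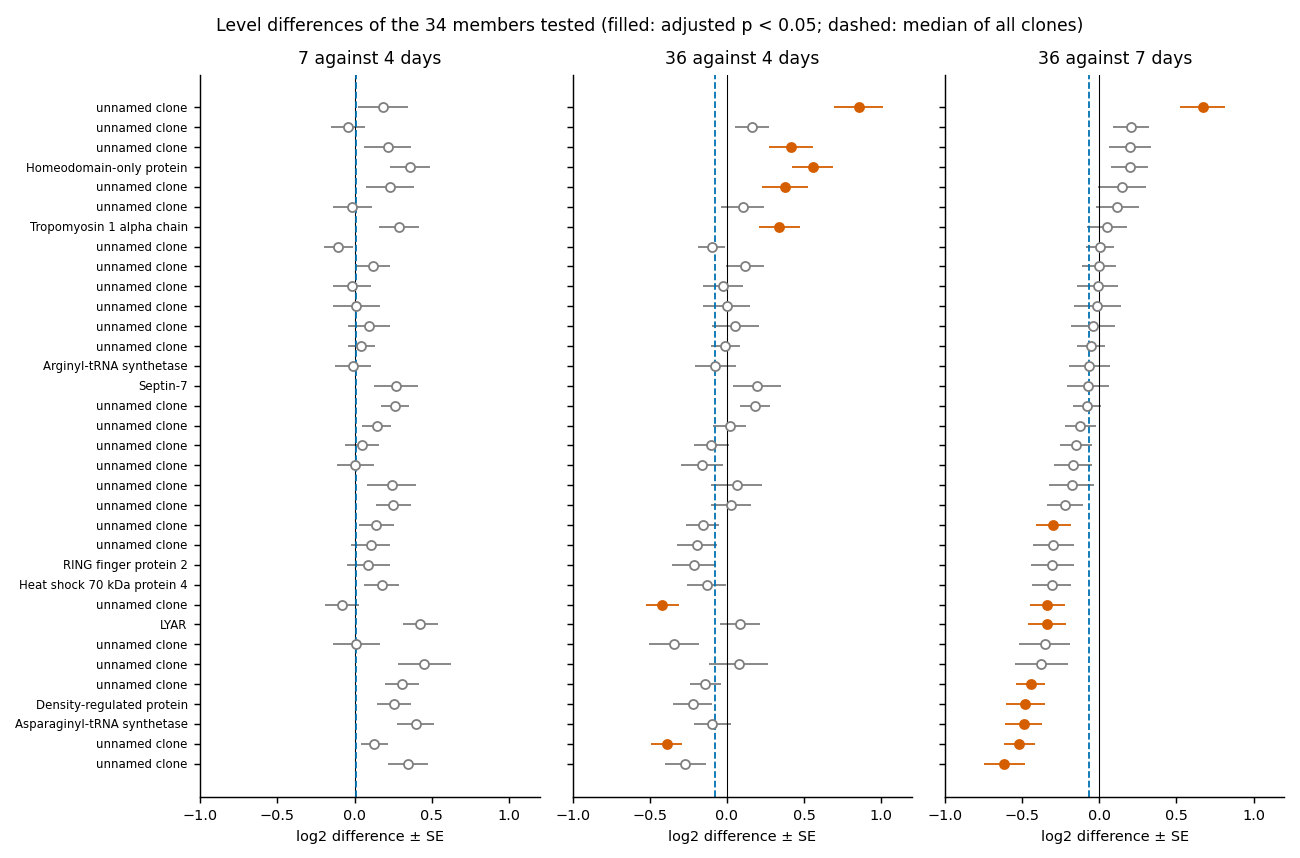
Log2 differences (± SE) of the 34 gained clones listed in at least 5 fish of 4, 7 and 36 days each, in the 3 comparisons among those groups. Filled points passed an adjusted p of 0.05 in limma, and the dashed line is the median of all 1720 clones. No clone passed for 7 against 4 days, 5 rose and 2 fell for 36 against 4 days, and 1 rose and 8 fell for 36 against 7 days.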

How the data were processed

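Muscle RNA of 43 trout was hybridised as 33P-labelled cDNA to nylon arrays. The authors quantified the spots with BZScan, excluded spots with a weak vector oligonucleotide signal, corrected the others for that signal, scaled each array to its median, and deposited linear normalized intensity values. The medians of the listed clones still differed between arrays. Of 9216 rows, 193 control rows were left out. A clone was not listed where its cell was empty (285556 cells) or 0 (10107 cells). Apart from the exclusion of weak spots, the reason for empty cells was not given in the sources used here. The depth of an array has no count, and the number of fish limits the precision. The p-values measure the spread between fish.

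The members and lists were chosen with earlier results of these data known. Groups were taken from the sample titles. No comparison with fasted or 11-day fish, which chose the members, was tested. Listing was tested for clones with at least 5 listed and 5 unlisted fish in the 2 groups. Levels were fitted in limma 3.58.1 (R 4.3.3) on log2 values with 1 mean per group over all 43 arrays, so fasted and 11-day fish enter the estimate of spread; a fit of only the groups compared was an alternative. SAM, which the methods name, was not run, and calls were made at an adjusted p under 0.05. In simulated data with the empty cells of 36 against 4 days (1720 clones, 200 changed), limma recovered 97% of clones changed by a log2 of 1 and 82% of those changed by 0.5, with 7 false calls among 1520 unchanged clones. The simulated noise was independent for each value, without array effects, so these rates need not hold for the members. Alternatives were other thresholds, normalizations, scales, filters, array sets, variance models and a replicate block.

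Named genes were to be all members with a gene name, and those without a name that were called, that stood at the extreme of the rule or that lay nearest its thresholds. Of the unnamed ones 4 are given by clone name (the largest called rise, the largest called fall, the single clone at the extreme of the rule and the one with the smallest p for listing, the last 2 not called), chosen after their values were seen, and the rest by counts. Python 3.11.15, numpy 2.4.6, scipy 1.17.1, pandas 2.3.3, statmod 1.5.0 and matplotlib 3.10.9 were used.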

Additional observations from a re-analysis of the deposited data

Results flagged for a closer look

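In 90 groups of 4 to 10 values, the highest or lowest value was compared with its nearest neighbour by Dixon's ratio of gap to range. The groups were listed values of the named members and of the 4 unnamed ones given by clone name. The counts of gained clones per fish in each feeding group were included too. It exceeded the 95% critical value in 3 groups, where chance alone gives about 1 in 20. Asparaginyl-tRNA synthetase had a value of 3.50 in fish 10 of 11 days, the highest of 6, with the next at 2.53. FK506-binding protein 2 had 0.936 in fish 10 of 4 days, the highest of 4, with the next at 0.720. Hypothetical protein MJ1432 had 1.49 in fish 7 of 11 days, the highest of 8, with the next at 0.899.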

How the results depend on the processing

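For the listing of members per fish, counting only values of at least 1 gave means of 36.0 at 4 days, 44.9 at 7 days and 52.6 at 11 days; the order of the refed groups was kept. In the listing tests, an unadjusted p under 0.05 gave 4, 7 and 10 members for 7 against 4, 36 against 4 and 36 against 7 days, and values of at least 1 gave 2 and 1 in the comparisons of 36 days with 4 and 7 days. Over all clones, the unadjusted threshold gave 23, 134 and 123 calls in place of 0, 1 and 0; values of at least 1 gave 9 for 36 against 4 days and 7 for 36 against 7 days, and dropping the 5 arrays with fewest values gave 9 for 36 against 4 days.

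For levels, member calls (7 for 36 against 4 days and 9 for 36 against 7 days) became 0 and 0 at an adjusted p under 0.0001, 3 and 14 with quantile normalization, 4 and 4 without the dimmest 25% of clones (14 members tested), 2 and 3 with at least 7 fish per group (8 tested), and 3 and 5 without the 5 arrays with the fewest values (24 tested). For 7 against 4 days array weights gave 5 in place of 0. Over all clones the calls at 0.0001 were 70 in place of 656 and 32 in place of 488; for 7 against 4 days, in place of 3, they were 0 at 0.0001 and with quantile normalization, 99 with array weights, 13 in a fit of only the 2 groups, 10 without the dimmest clones or with at least 7 fish, 9 with at least 3 fish, 2 with arrays centred on the clones listed throughout or with square roots, and 1 without the 5 arrays. The replicate block gave 0, 7 and 6 member calls, and a fit of only the 2 groups compared 0, 7 and 7. Equal replicate numbers were not read as pairs of fish: over 82 pairs of the same number in different groups, r of the deviations ran from -0.49 to 0.51, and 31 exceeded 0.1. For 4 and 7 days the mean r was 0.25 against -0.03 for other numbers, with 6 of 9 pairs over 0.1, and for 7 and 36 days it was 0.08, with 5 of 9.

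The 16 called differences of single members had 184 alternative values: 146 stayed called, 38 did not, and 0 turned sign; at a threshold of 0.05, 9 of the 16 stayed called under every other setting that tested them. Uncalled differences turned sign with quantile normalization for arginyl-tRNA synthetase (0.07, 7 against 4 days), LYAR (-0.05) and 1RT36K14_C_F07 (-0.09, both 36 against 4 days), and for homeodomain-only protein (-0.09) and tropomyosin 1 alpha chain (-0.19; -0.04 with array weights) for 36 against 7 days. The cause was not tested.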
